A study of Mus musculus with 20 samples.

Results

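Glycolysis breaks glucose down to pyruvate or lactate in the cytosol, and the citric acid cycle oxidises the resulting acetyl units in mitochondria. The adult heart makes most of its ATP from fatty acids and keeps glycolysis as a smaller, adjustable supply. Many glycolytic steps are served by paralogous enzymes, of which 1 form prevails in striated muscle and others in most other cells, so a whole-heart sample reads both. The genes described here are 35 enzymes and carriers of these pathways, taken by name from the 34291 rows of the count table. They comprise 21 genes from glucose uptake to lactate and 14 genes of the citric acid cycle, and pyruvate kinase (Pkm) stands in the table under its older symbol Pkm2.

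RNA came from whole frozen hearts of C57BL/6 mice. In the rapamycin group 10 mice ate a diet with 14 ppm rapamycin, which blocks the nutrient-sensing kinase mTOR, for 3 months from 24 months of age, and in the control group 10 mice of the same age ate a control diet. All hearts were taken at 27 months, and no transgene or further treatment is named for either group. The design asks how late-life rapamycin changes the transcriptome of the old heart. Libraries are called by their diet and the number in their label.

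Each library held 7039514 to 12458309 counts. The 12 cardiomyocyte markers used as a check of the tissue, Myh6 (a cardiac myosin heavy chain) and Actn2 (a sarcomeric actinin) among them, lay between 408 and 21400 CPM in every library. Single markers and summed marker levels are counts relative to the unscaled library total, whereas levels of enzymes are normalised CPM, with totals scaled by TMM factors, as are log2 CPM. Several libraries held transcripts of other tissues, and control 19 stood apart. The summed level of 5 lung markers was 28090 CPM there, 362.5 in control 1, 125.9 in rapamycin 15, 64.2 in control 20 and at most 4.06 in the other 16 libraries. The sum of 5 liver markers was 330.5 CPM in rapamycin 9, 36.5 in control 7 and 23.4 in rapamycin 4, and that of 5 thymus markers was 26.1 CPM in rapamycin 8. In control 19 the mean cardiomyocyte marker level was 10.28 on the log2 CPM scale, against 11.61 to 12.04 in the other controls and 11.78 to 12.18 with rapamycin. The 35 enzymes took 1.04% of all counts in control 19, 1.597 to 1.93% in the other controls and 1.61 to 2.02% with rapamycin. Control 19 was the lowest of the 20 libraries for 28 of the 35 genes, whereas it was lowest for 25.4% of all genes tested. Results are therefore given with and without this library.

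No gene of these pathways passed the threshold of an adjusted p of 0.05 between the diets (0 of 35, edgeR quasi-likelihood test with Benjamini-Hochberg adjustment over 13940 genes), while 3.36% of all genes tested did. With DESeq2 1 of the 35 passed, the platelet-type phosphofructokinase Pfkp (adjusted p = 0.0354), against 6.95% of all genes. All 35 genes passed the filter on low counts. At an unadjusted p under 0.05, 10 of the 35 were higher and 2 lower with rapamycin, against 8.21% and 13.5% of all genes. The 10 higher genes were Eno3, Fh1, Hk2, Pfkm, Pkm, Idh3g, Mdh1, Suclg2, Suclg1 and Idh3b, and the 2 lower ones were Pfkp and Pfkfb2.

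Fold changes are given on the log2 scale as rapamycin over control. The fold change was above 0 in 30 of the 35 genes, against 47.5% of all genes, and its median was 0.20, against -0.01 over all genes. All 14 cycle genes lay above 0, between 0.13 and 0.34 with a median of 0.23. The glycolytic genes were more dispersed, from -0.42 to 0.38 with a median of 0.11, and 5 of the 21 lay below 0. With library totals in place of scaling factors the median of all genes shifted to -0.13 and that of the 35 to 0.09. On that scale 25 of the 35 lay above 0, against 2656 of the 13940 genes tested. Hk1, Gpi1, Pfkl, Gapdh and Eno1 had turned below 0. Without control 19 no gene of the 35 passed either (smallest adjusted p = 0.0550, Eno3), against 3.38% of all genes. In that fit 13 had an unadjusted p under 0.05 (19.4% of all genes), 28 lay above 0 (51.4% of all genes), and the median was 0.14, with 0.09 in glycolysis and 0.17 in the cycle. When all 4 libraries with lung transcripts were left out, no gene of the 35 passed (2% of all genes). Here 7 had an unadjusted p under 0.05 (17.8% of all genes), 29 lay above 0 (51.6%), and the median was 0.13. Without rapamycin 9 alone the median over the 35 genes was 0.21.

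**Figure D1:**
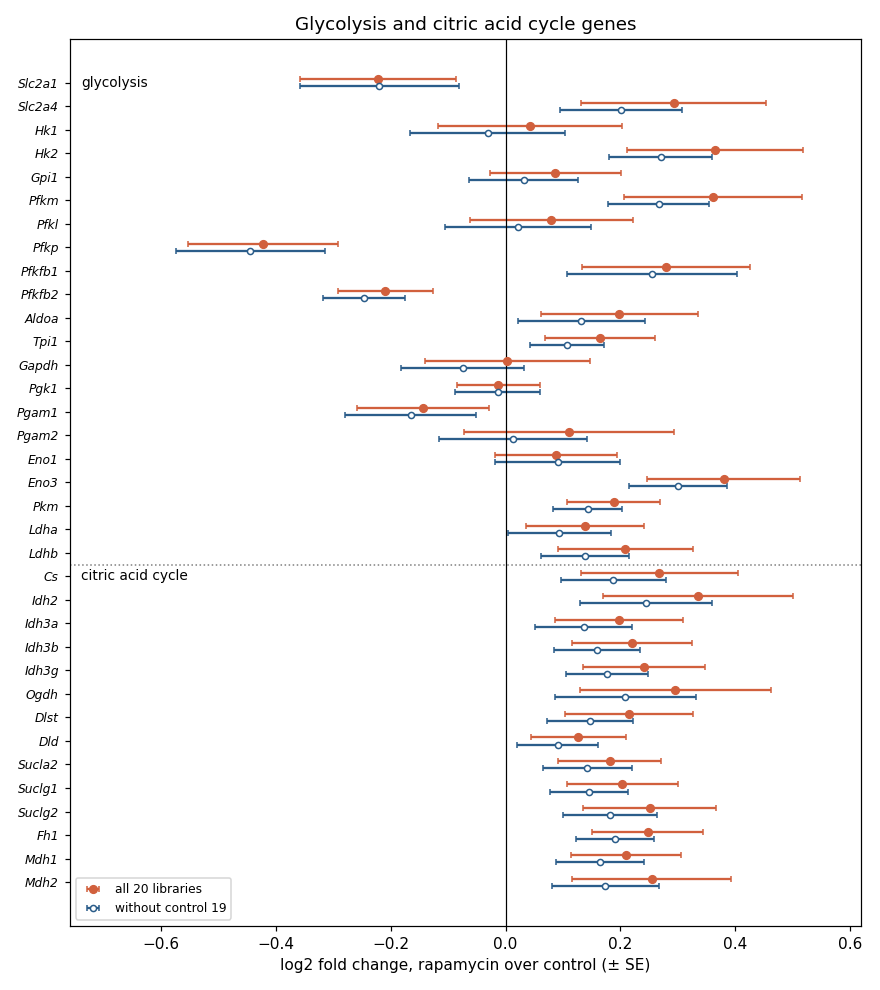
Log2 fold change of rapamycin over control ± SE (horizontal axis) for each of the 35 genes (rows, in pathway order), from all 20 libraries (filled points) and without control 19 (open points). The 14 cycle genes all lie right of 0 in both fits. Pfkp, Pfkfb2, Slc2a1, Pgam1 and Pgk1 lie left of 0 in both, and Hk1 and Gapdh only without control 19.

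The cardiomyocyte markers differed in the same direction as most of these enzymes. All 12 had a fold change above 0, with a median of 0.30, and none passed the threshold (7 of 12 had an unadjusted p under 0.05). Without control 19 the median was 0.22 and 2 of the 12 rose. Of 10 macrophage markers 9 fell, with a median of -0.62, and of 7 lymphocyte markers tested 2 fell, while none of 8 endothelial, 8 fibroblast and 6 smooth muscle markers passed. In whole-heart RNA fewer cells of a type and less RNA per cell cannot be told apart. When the mean cardiomyocyte marker level was added to the model, none of the 35 enzymes passed, against 0.416% of all genes. In that model 14 enzymes lay above 0 (48.2% of all genes) and 21 below, with a median of -0.02. Of the 35, 4 had an unadjusted p under 0.05 and all 4 were lower (8.09% of all genes).

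Within the rapamycin group alone, Pearson's r between an enzyme's log2 CPM and the cardiomyocyte marker level ran from -0.16 to 0.91 over the 35 genes, with a median of 0.67 (10 libraries that share depth and composition with the markers). Pfkm, the muscle phosphofructokinase, had r = 0.91 and Spearman's rho = 0.93 (permutation p = 0.00016 and 0.00031, adjusted over the 35 genes 0.00344 and 0.00927), and r = 0.88 without the 2 libraries farthest from the median. Slc2a4, the insulin-responsive glucose carrier of muscle and fat, had r = 0.88 and rho = 0.88 (permutation p = 0.00059 and 0.00171, adjusted 0.00344 and 0.0129), and r = 0.83 without those 2 libraries. Pfkp had r = 0.00 and rho = 0.01 (permutation p = 0.998 and 1.0, adjusted 0.998 and 1.0), and its r without those 2 libraries was 0.51. Pfkm and Slc2a4 thus moved with the markers from library to library, as did many other members. Of the 35 genes 17 had an adjusted permutation p under 0.05 for r, all with r above 0. Among these, Tpi1, Ldhb and Dlst had r of 0.91, 0.88 and 0.87. Whether the r of Pfkm and Slc2a4 differs from that of Pfkp was not tested.

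**Figure D2:**
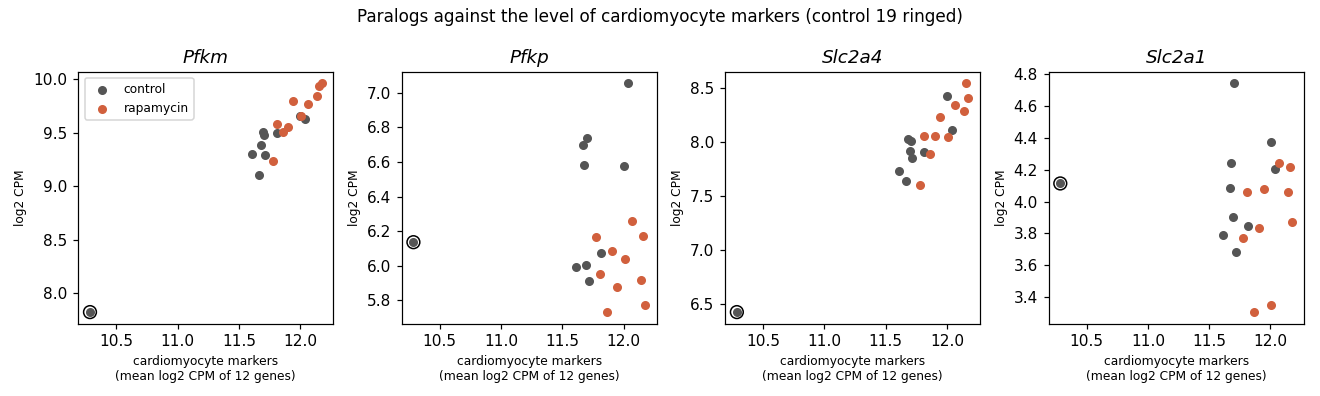
Log2 CPM of 4 genes (vertical axes) against the mean log2 CPM of 12 cardiomyocyte markers (horizontal axes) in the 20 libraries, with control 19 ringed. Pfkm and Slc2a4 follow the marker level in both groups, and for Pfkp all 10 rapamycin libraries lie below the 5 highest controls at any marker level.

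The first genes of the path are 2 glucose carriers of the cell membrane. Slc2a1, the basal carrier of most cell types, ranged from 12.6 to 26.6 CPM in controls (median 16.9) and from 9.68 to 18.7 with rapamycin (median 15.5). Slc2a4 ranged from 85.9 to 343 CPM in controls (median 240.3) and from 194 to 373 with rapamycin (median 283). The groups overlapped widely for both carriers, and neither fold change passed (-0.22 ± 0.14 and 0.29 ± 0.16, SE, adjusted p = 0.349 and 0.294 by edgeR). Without control 19 the fold changes of Slc2a1 and Slc2a4 were -0.22 and 0.20 (adjusted p = 0.412 and 0.317 by edgeR). The ratio of the 2 carriers within a library, which does not depend on how libraries are scaled, differed between the diets. Over all 20 libraries, with the diets pooled, Pearson's r with the cardiomyocyte marker level was 0.95 for Slc2a4 and -0.06 for Slc2a1. Without the 2 libraries farthest from the median it was 0.81 and 0.08. In the same order, r was 0.97 and 0.06 within the controls, and 0.88 and 0.36 within the rapamycin group. No ratio of any pair was fitted with the markers in the model, so the part of the cell mix in the ratios was not tested. The log2 ratio of Slc2a4 to Slc2a1 counts averaged 3.72 ± 0.56 in control libraries and 4.28 ± 0.28 in rapamycin libraries (SD, n = 10 each), a difference of 0.56 ± 0.20 (SE, 2-sided permutation p = 0.00222, adjusted over 10 pairs 0.0111). In 6 rapamycin libraries the ratio exceeded that of every control. Without control 19 the difference was 0.41 (permutation adjusted p = 0.0222), and without the 4 libraries with lung transcripts it was 0.38 and did not pass (permutation adjusted p = 0.0798).

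Hexokinase phosphorylates glucose and so traps it in the cell. Hk2, the form typical of insulin-sensitive muscle, ranged from 92.9 to 327 CPM in controls (median 278) and from 231 to 402 with rapamycin (median 334). In 6 rapamycin libraries Hk2 lay above every control, while rapamycin 5 lay below every control but control 19. The fold change was 0.36 ± 0.15 (SE, adjusted p = 0.170 by edgeR) and 0.27 without control 19 (0.0912). For Hk1, the ubiquitous form, the fold change was 0.04 ± 0.16 and turned to -0.03 without control 19. The log2 ratio of Hk2 to Hk1 was 0.85 ± 0.32 in controls and 1.17 ± 0.17 in rapamycin libraries (SD, n = 10), 0.32 ± 0.11 higher (SE, permutation adjusted p = 0.0279), and all 10 rapamycin libraries exceeded the control median. Without control 19 the difference was 0.26 and no longer passed (permutation adjusted p = 0.0594), and leaving out control 11, control 13, control 17 or the 4 libraries with lung transcripts ended the call as well. Gpi1, the isomerase that follows, had a fold change of 0.09 ± 0.11.

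Phosphofructokinase commits the sugar to glycolysis and is made from 3 genes, the muscle form Pfkm, the liver form Pfkl and the platelet form Pfkp. At this step paralogs lay on opposite sides of 0, as did Slc2a4 and Slc2a1, Pfkfb1 and Pfkfb2, and Pgam2 and Pgam1. The 250 bases upstream of a RefSeq start (GRCm38.p6) are shown for each form in the direction of transcription, to set the platelet form beside the others. Pfkp lies on the minus strand of chromosome 13 (chr13:6648772-6649021), Pfkl on the minus strand of chromosome 10 (chr10:78009808-78010057), and Pfkm on the plus strand of chromosome 15 (chr15:98111810-98112059, the most downstream of 4 starts). Capitals mark the GC box GGGCGG on either strand.
Pfkp: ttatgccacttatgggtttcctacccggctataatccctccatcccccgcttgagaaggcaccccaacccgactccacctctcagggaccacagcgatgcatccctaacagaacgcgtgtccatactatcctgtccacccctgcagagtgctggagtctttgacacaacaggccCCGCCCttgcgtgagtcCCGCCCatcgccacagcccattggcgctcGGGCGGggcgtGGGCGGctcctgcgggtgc
Pfkl: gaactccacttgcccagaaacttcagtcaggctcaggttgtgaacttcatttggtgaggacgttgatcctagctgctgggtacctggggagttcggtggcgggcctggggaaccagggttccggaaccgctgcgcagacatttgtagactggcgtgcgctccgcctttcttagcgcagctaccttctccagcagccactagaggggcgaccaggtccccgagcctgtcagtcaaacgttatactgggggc
Pfkm: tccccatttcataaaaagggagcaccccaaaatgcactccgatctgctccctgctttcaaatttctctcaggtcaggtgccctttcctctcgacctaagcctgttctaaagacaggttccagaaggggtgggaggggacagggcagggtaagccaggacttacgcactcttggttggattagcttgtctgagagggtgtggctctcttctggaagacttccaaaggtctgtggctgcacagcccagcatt

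The Pfkp window holds 4 GC boxes, and the Pfkl window and the 4 Pfkm windows hold 0. The RefSeq promoter set holds 53 windows of 33 members. Of these windows 24 held this motif (45.3%), against 32.7% of all 32851 windows of that length. The letters CCAAT on either strand stood in 47.2% of the members' windows and 33.9% of all windows, CANNTG in 75.5% and 66.2%, AAGGTCA in 3.77% and 4.08%, and TATAAA in 1.89% and 12.4%. These are matches of letters and were not tested for binding. Slc2a4 and Idh3a are not in that set.

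Pfkm ranged from 226.5 to 809 CPM in controls (median 691) and from 603 to 997 with rapamycin (median 839). In 5 rapamycin libraries Pfkm was above every control, and in 9 it was above the control median. The fold change was 0.36 ± 0.15 (SE, adjusted p = 0.176 by edgeR), 0.27 without control 19 (0.0900) and 0.02 with the cardiomyocyte markers in the model. Pfkp lay the other way. It ranged from 59.9 to 133 CPM in controls (median 82.8) and from 52.9 to 76.5 with rapamycin (median 63.7), so that no rapamycin library reached the control median and 3 lay below every control.

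The Pfkp values of controls were split, with 5 libraries between 95.4 and 133 CPM and 5 between 59.9 and 70.1, the latter range overlapping with rapamycin. The fold change was -0.42 ± 0.13 (SE, p = 0.00389, adjusted p = 0.0715 by edgeR), the smallest p of the 35 genes. It was -0.44 without control 19 (0.0592) and -0.52 with the cardiomyocyte markers in the model (0.0787). It passed without control 10 (0.0413) and without control 20 (0.0483). Of the 35 genes 1, Pfkp, stood in the authors' deposited table of 700 selected genes, against 696 of the 34291 rows of the count table. That table holds the same 20 libraries, so it gives no separate support. Of the longest Pfkp transcript 18% matched another gene at 96% identity or more. Genes that overlap at the same site were not set apart in this search, so how far the Pfkp level is affected is uncertain. Pfkl, at 122 ± 34.9 CPM in controls and 129 ± 20.53 CPM in rapamycin libraries (SD, n = 10), had a fold change of 0.08 ± 0.14.

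The ratio of Pfkm to Pfkp counts separated the diets most among the 10 pairs. On the log2 scale it ran from 1.69 to 3.50 in controls (median 2.94) and from 3.07 to 4.19 with rapamycin (median 3.70). All 10 rapamycin libraries exceeded the control median and 8 exceeded every control. The difference of 0.80 ± 0.20 (SE, permutation p = 0.00052, adjusted over 10 pairs 0.0052) corresponds to a 1.74-fold higher ratio. It was 0.66 without control 19 (permutation adjusted p = 0.0108) and 0.69 without the 4 libraries with lung transcripts (permutation adjusted p = 0.0280), and it passed whichever library was left out. The log2 ratio of Pfkm to Pfkl was 2.39 ± 0.36 in controls and 2.69 ± 0.12 in rapamycin libraries (SD, n = 10), 0.30 ± 0.12 higher (SE, permutation adjusted p = 0.0279). It exceeded the control median in all 10 rapamycin libraries and every control in none. Without control 19 it was 0.22 higher and no longer passed (permutation adjusted p = 0.0594). The call also ended without control 1, 11, 13 or 17, without rapamycin 5 or 18, and without the 4 libraries with lung transcripts.

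**Figure D3:**
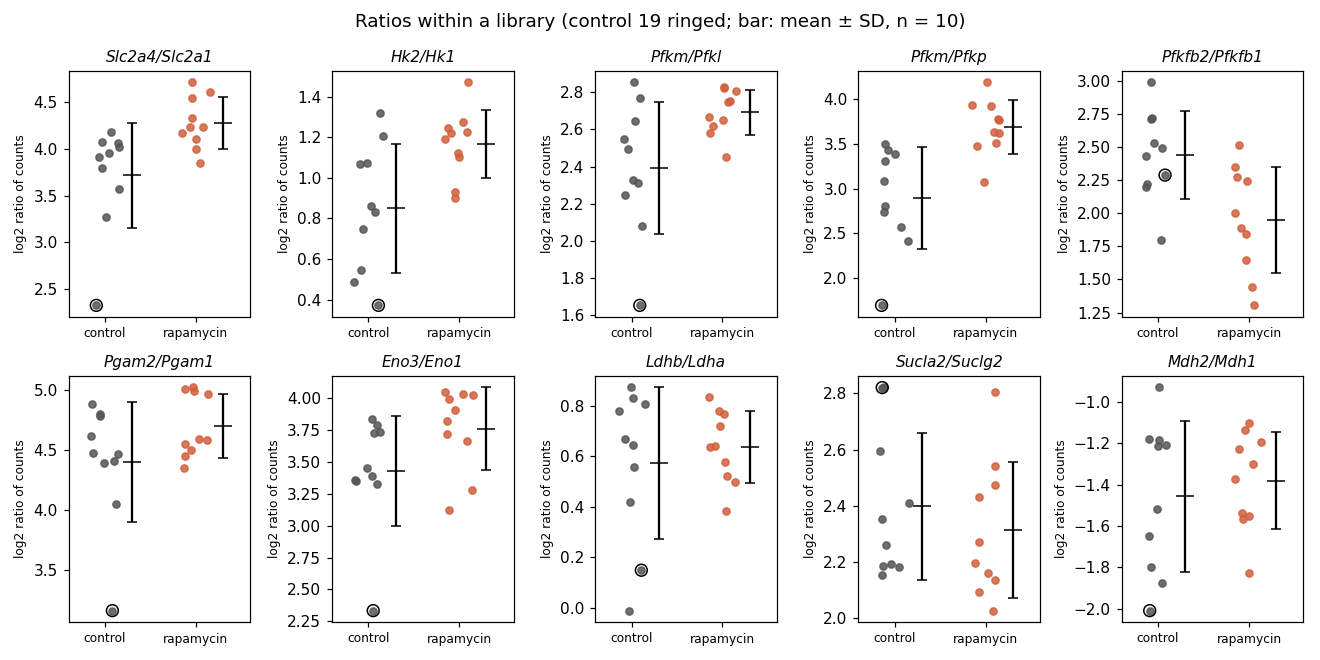
Log2 ratio of the counts of 2 paralogs or partner subunits within each library (vertical axes), for 10 pairs in 10 control and 10 rapamycin libraries, with the mean ± SD beside the points and control 19 ringed. For Pfkm/Pfkp 8 rapamycin libraries lie above every control. For Pfkm/Pfkl, Pfkfb2/Pfkfb1, Ldhb/Ldha, Sucla2/Suclg2 and Mdh2/Mdh1 no rapamycin library does.

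An activator of phosphofructokinase is made and removed by the bifunctional enzymes Pfkfb1, the liver and muscle form, and Pfkfb2, the heart form. Pfkfb2 ranged from 149 to 241 CPM in controls (median 214) and from 143 to 205 with rapamycin (median 180.0). All 10 rapamycin libraries lay below the control median, and 1 lay below every control. The fold change was -0.21 ± 0.08 (SE, adjusted p = 0.147 by edgeR), and -0.25 without control 19 (0.0577). Of its transcript 27.1% matched another gene at that identity. Pfkfb1, at 38.6 ± 10.3 CPM in controls and 46.9 ± 11.3 CPM in rapamycin libraries (SD, n = 10), had a fold change of 0.28 ± 0.15 (0.267). The log2 ratio of Pfkfb2 to Pfkfb1 was 2.44 ± 0.33 in controls and 1.95 ± 0.40 with rapamycin, 0.49 ± 0.16 lower (SE, permutation adjusted p = 0.0279), and 9 of 10 rapamycin libraries lay below the control median. Without control 19 it was 0.50 lower (permutation adjusted p = 0.0344). Leaving out control 11, control 13 or the 4 libraries with lung transcripts ended the call.

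**Figure D4:**
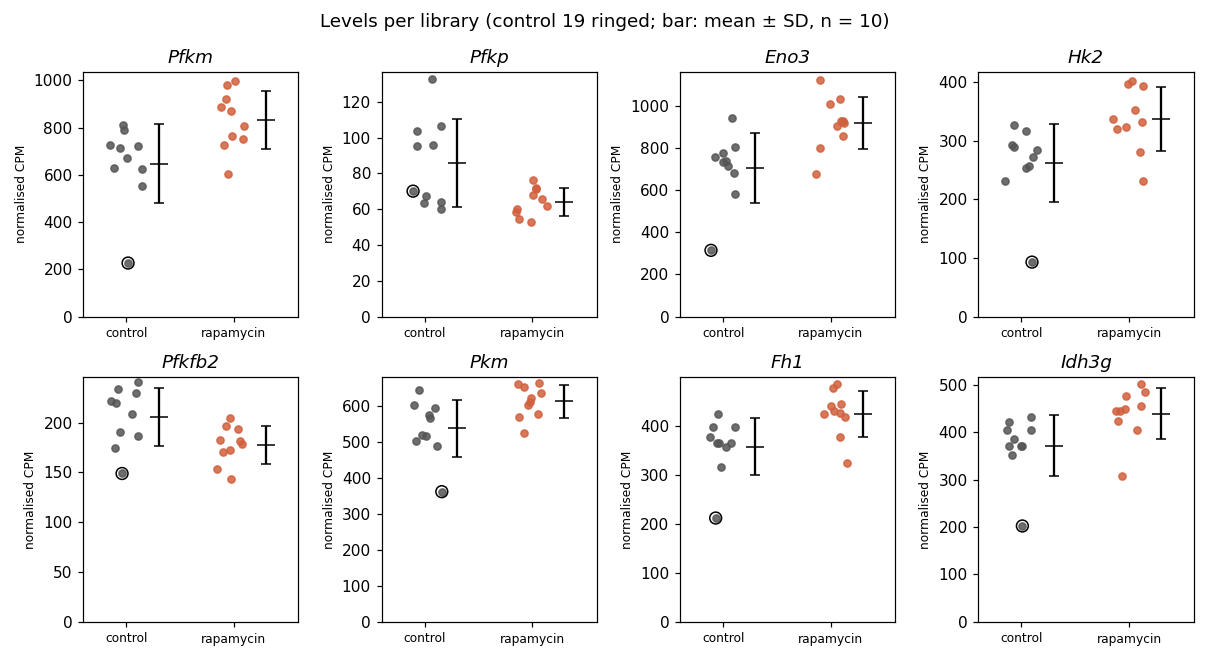
Normalised CPM (vertical axes, from 0) of 8 genes in 10 control and 10 rapamycin libraries, with the mean ± SD beside the points and control 19 ringed. Pfkp and Pfkfb2 lie lower with rapamycin and the other 6 genes higher, with overlap in every panel.

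From aldolase to phosphoglycerate kinase the fold changes were small. Aldoa, which splits the sugar bisphosphate, had 1527 ± 402 CPM in controls and 1752 ± 261 CPM in rapamycin libraries (SD, n = 10), a fold change of 0.20 ± 0.14 (SE, adjusted p = 0.412 by edgeR). Tpi1, which interconverts the 2 triose phosphates, had a fold change of 0.17 ± 0.10. Gapdh, the dehydrogenase often used as a reference transcript, had a fold change of 0.00 ± 0.14 and -0.07 without control 19, and Pgk1, which makes ATP, one of -0.01 ± 0.07.

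Per kilobase of exon Gapdh had 57.9 ± 16.96 CPM in controls (SD, n = 10), less than Aldoa (595 ± 157) or Eno3 (449 ± 105). At 96% identity or more 88.0% of its transcript matched other genes, of which 59 of 63 are annotated as pseudogenes, and reads were kept only at unique sites. Its level is therefore uncertain, as are those of Eno1 (85.6% matched), Ldhb (76.8%), Pgk1 (68.8%), Pkm (65.5%), Gpi1 (51.9%), Pgam1 (43.1%), Suclg2 (40.7%) and Tpi1 (19.3%).

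Phosphoglycerate mutase and enolase each have a muscle form. Pgam2, the muscle mutase, had 245 ± 82.2 CPM in controls and 264 ± 53.3 with rapamycin, and Pgam1, the form of brain and most other tissues, had 11.02 ± 2.51 and 9.99 ± 1.27 (SD, n = 10). The log2 ratio of the pair was 0.30 ± 0.18 higher with rapamycin and did not pass (SE, permutation adjusted p = 0.146), and without control 19 the difference was 0.16 (permutation adjusted p = 0.292). Eno3, the muscle enolase, ranged from 314 to 939 CPM in controls (median 736) and from 677.5 to 1120.0 with rapamycin (median 921). In 9 rapamycin libraries Eno3 exceeded the control median, and in 3 it exceeded every control. The fold change of 0.38 ± 0.13 (SE, adjusted p = 0.104 by edgeR) was the highest of the 35 genes. It was 0.30 without control 19 (0.0550) and 0.10 with the cardiomyocyte markers in the model. Eno1, the form of most cells, had a fold change of 0.09 ± 0.11, and the ratio of Eno3 to Eno1 was 0.33 ± 0.17 higher on the log2 scale (permutation adjusted p = 0.0962). Without control 19 the difference was 0.21 (permutation adjusted p = 0.198), and 2 rapamycin libraries then lay below every control. The ratio passed without rapamycin 3 (permutation adjusted p = 0.0356) and without rapamycin 9 (0.0424).

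At the end of glycolysis Pkm makes pyruvate and ATP. The table has 1 row for the gene, so its splice forms cannot be told apart. Pkm ranged from 361 to 644 CPM in controls (median 542.5) and from 525 to 664 with rapamycin (median 616). Its groups overlapped, with 3 rapamycin libraries above every control (fold change 0.19 ± 0.08, SE, adjusted p = 0.178 by edgeR). Without control 19 the Pkm fold change was 0.14 (adjusted p = 0.183 by edgeR). The lactate dehydrogenases Ldha, the form of skeletal muscle, and Ldhb, the form of heart, had fold changes of 0.14 ± 0.10 and 0.21 ± 0.12. Their log2 ratio of Ldhb to Ldha was 0.57 ± 0.30 in controls and 0.64 ± 0.14 in rapamycin libraries (SD, n = 10), a difference of 0.06 ± 0.11 (SE, permutation adjusted p = 0.584).

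In the citric acid cycle all 14 genes had fold changes slightly above 0, and none passed. With the cardiomyocyte markers in the model 8 lay above 0 and 6 below. Citrate synthase (Cs), which joins acetyl units to oxaloacetate, had 746 ± 190 CPM in controls and 898 ± 114 CPM in rapamycin libraries (SD, n = 10), a fold change of 0.27 ± 0.14 (SE, adjusted p = 0.256 by edgeR). Idh2, the mitochondrial isocitrate dehydrogenase that makes NADPH, had the highest fold change of the cycle (0.34 ± 0.17, 0.243). Without control 19 the fold changes of Cs and Idh2 were 0.19 and 0.24, and neither passed. The groups overlapped for every cycle gene, and the share of all genes without overlap was not computed.

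The NAD-linked isocitrate dehydrogenase is built from Idh3a, Idh3b and Idh3g. Idh3g ranged from 202 to 432 CPM in controls (median 378) and from 308 to 501 with rapamycin (median 447.5). Of the rapamycin libraries 7 lay above every control, while rapamycin 5 lay below every control but control 19. The fold change was 0.24 ± 0.11 (SE, adjusted p = 0.189 by edgeR) and 0.18 without control 19 (0.170). Idh3b ranged from 322 to 684 CPM in controls (median 583) and from 493 to 748 with rapamycin (median 669), with 4 rapamycin libraries above every control (0.22 ± 0.11, 0.226). Without control 19 the Idh3b fold change was 0.16 (adjusted p = 0.241 by edgeR). Idh3a had a fold change of 0.20 ± 0.11, so the fold changes of the 3 subunits lay within 1 SE of each other.

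The 2-oxoglutarate dehydrogenase complex consists of the decarboxylase Ogdh, the succinyl transferase Dlst and the dehydrogenase Dld, which it shares with pyruvate dehydrogenase. Their fold changes were 0.30 ± 0.17, 0.22 ± 0.11 and 0.13 ± 0.08. Succinyl-CoA ligase pairs Suclg1 with Sucla2, which makes ATP, or with Suclg2, which makes GTP. Suclg1 ranged from 151 to 312 CPM in controls (median 249) and from 239 to 339 with rapamycin (median 299.9). Suclg2 ranged from 54.7 to 129 CPM in controls (median 114) and from 89.6 to 145.5 with rapamycin (median 125). For Suclg1 1 rapamycin library and for Suclg2 5 lay above every control, and neither fold change passed (0.20 ± 0.10 and 0.25 ± 0.12, adjusted p = 0.222 and 0.211 by edgeR). Without control 19 these fold changes were 0.15 and 0.18 (adjusted p = 0.238 and 0.215 by edgeR). Sucla2 had a fold change of 0.18 ± 0.09, and the log2 ratio of Sucla2 to Suclg2 was 0.08 ± 0.11 lower with rapamycin (permutation adjusted p = 0.578).

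Fumarase (Fh1), which hydrates fumarate to malate, ranged from 212 to 423 CPM in controls (median 365) and from 324 to 486 with rapamycin (median 428). In 7 rapamycin libraries Fh1 lay above every control, and 3 lay within the control range. Its fold change of 0.25 ± 0.10 (SE, adjusted p = 0.142 by edgeR) was 0.19 without control 19 (0.116) and 0.07 with the cardiomyocyte markers in the model. Mdh1, the cytosolic malate dehydrogenase of the malate-aspartate shuttle, ranged from 1322 to 2461 CPM in controls (median 1971) and from 1848 to 2719 with rapamycin (median 2345). The groups overlapped, with 2 rapamycin libraries above every control (0.21 ± 0.10, 0.207). Without control 19 the Mdh1 fold change was 0.16 (adjusted p = 0.236 by edgeR). Mdh2, the mitochondrial form, had a fold change of 0.26 ± 0.14, and the log2 ratio of Mdh2 to Mdh1 differed by 0.08 ± 0.14 (permutation adjusted p = 0.584).

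**Figure D5:**
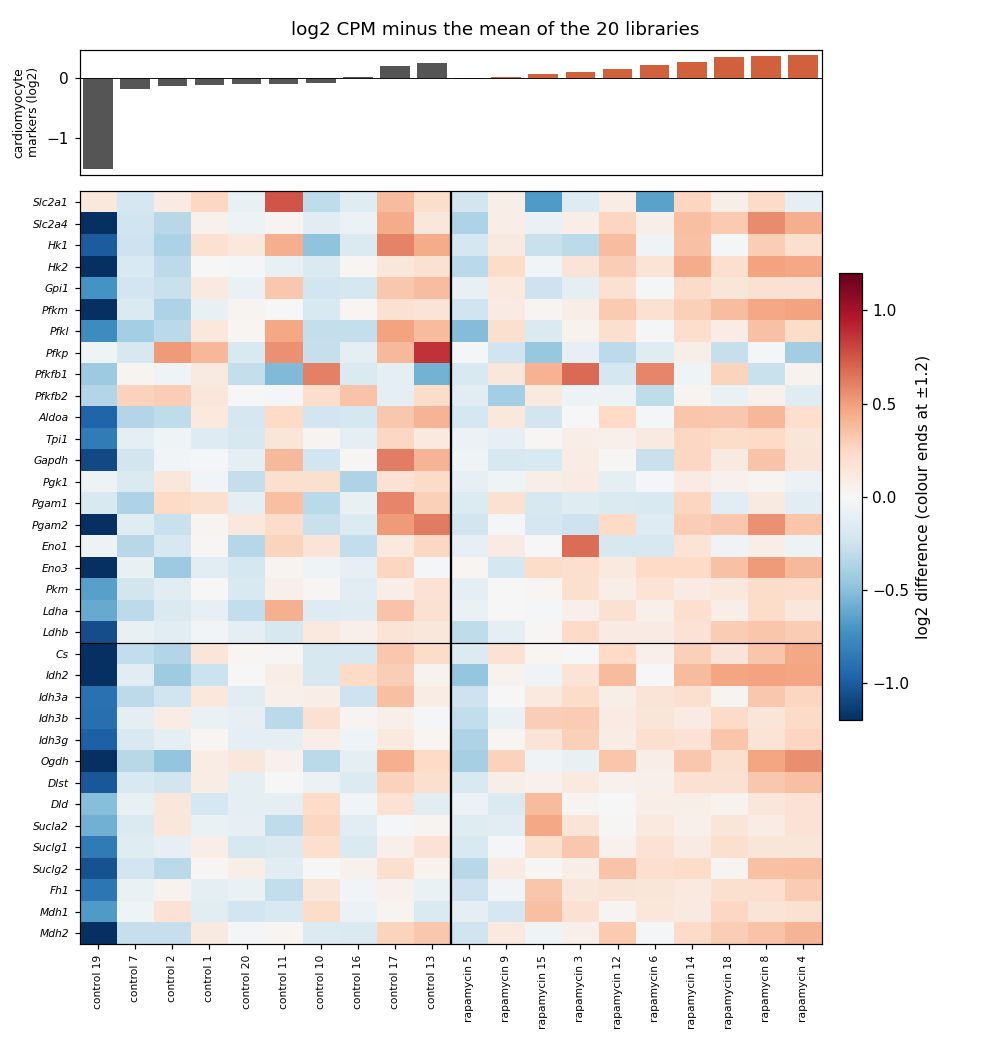
Log2 CPM of each of the 35 genes (rows, in pathway order, glycolysis above the line) minus its mean over the 20 libraries, with columns grouped by diet and ordered by the cardiomyocyte marker level shown as bars (log2 difference from the mean). Control 19 is lowest in 28 rows.

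Per kilobase of exon the order of the enzymes in control hearts ran from Mdh1, at 937 ± 152 CPM per kb (SD, n = 10), through Ldhb (657 ± 128), Aldoa (595 ± 157), Idh2 (563.5 ± 154), Mdh2 (510.2 ± 128) and Eno3 (449 ± 105) down to Pfkp (19.98 ± 5.69), Pfkfb1 (18.9 ± 5.08), Pgam1 (6.21 ± 1.41) and Slc2a1 (5.31 ± 1.25). From Ldhb to Eno3 each gene differed from the next by less than either SD, as did Pfkp from Pfkfb1 and Pgam1 from Slc2a1. Mdh1 lay above Ldhb, and Pfkfb1 above Pgam1, by more than either SD. The places of Ldhb, Pfkp and Pgam1 are uncertain, because parts of their transcripts match other genes. At each of these steps the form typical of striated muscle or heart was the more abundant: Slc2a4 over Slc2a1 (83.6 ± 23.3 against 5.31 ± 1.25 CPM per kb), Hk2 over Hk1 (46.6 ± 11.8 against 30.1 ± 9.67), Pfkm over Pfkl and Pfkp (215.5 ± 55.6 against 32.7 ± 9.36 and 19.98 ± 5.69), and Pgam2 over Pgam1. The raw counts behind these levels ran from 67 for Pgam1 to 26683 for Mdh1 in a single library.

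Of 24 further genes of glycolysis and its side paths 21 were tested and 1 fell, where 2.68% of all genes fell. This was Hk3, a hexokinase of blood cells, which ranged from 3.113 to 17.4 CPM in controls (median 4.92) and from 2.53 to 4.17 with rapamycin (median 2.74). In 6 rapamycin libraries Hk3 lay below every control. Its fold change of -1.01 ± 0.28 (SE, adjusted p = 0.0473 by edgeR) was -0.71 without control 19 (0.0592) and -0.45 with the cardiomyocyte markers in the model (0.347). The call was lost in 15 of the 20 fits that left out 1 library and stood only without control 10, 13, 17 or 20 or rapamycin 5. The macrophage markers summed to 747 to 1461 CPM in controls other than control 19, to 4100 CPM in control 19, and to 470 to 1039 with rapamycin. Their part in the Hk3 value was not tested. The median over these 21 genes was -0.16, and 9 lay above 0, against 47.5% of all genes.

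Of 22 further genes of the citric acid cycle and its exchange with the cytosol 20 were tested, and none passed (6 had an unadjusted p under 0.05, against 21.7% of all genes, and DESeq2 called none). Their median was 0.16, and 15 lay above 0, against 47.5% of all genes. Among them, picked after their values were seen because they fill the step between succinate and fumarate, were the 4 subunits of succinate dehydrogenase. Sdha, Sdhb, Sdhc and Sdhd had fold changes of 0.29, 0.21, 0.33 and 0.16, and for Sdha, the flavoprotein subunit, 8 rapamycin libraries lay above every control. The other subunits had 2 to 4 such libraries.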

How the data were processed

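Polyadenylated RNA was sequenced as 50 bp paired-end reads, per the labels' protocols and the design text, which gives mapping to unique sites of MGSCv37 with at most 2 mismatches. What aligner, counter and strand setting were used is not given in the sources used here. The authors deposited raw counts per gene symbol for 20 libraries, and CPM for 700 selected genes, which equal the counts divided by the column totals within 0.001 CPM for the 696 genes matched by symbol. Rapamycin 4 has a column name 1 letter short of its title and was matched by number. The counts were tested with edgeR 4.0.16 (R 4.3.3): default expression filter, TMM factors, quasi-likelihood F-test over all 20 libraries without covariates, and Benjamini-Hochberg adjustment over 13940 genes, with a threshold of 0.05. Fold changes are given as log2(rapamycin/control). CPM were computed with TMM-scaled totals, and a prior count of 2 was added on the log2 scale. DESeq2 1.42.0 and RLE factors were alternatives. Ratios of paralogs are log2 of counts plus 0.5, compared by 2-sided permutation tests (scipy 1.17.1), adjusted over 10 pairs. Tests over all 20 libraries used 100000 resamples, and those that left out libraries used every possible split into groups. Lengths and sequence matches come from the GENCODE transcripts in the reference, and promoter sequences from RefSeq, matched by symbol for 33 of 35 genes. Each of the 20 numbers occurs in 1 group and no batch or date is given, so there is no pairing. The design text gives 10 mice per group, and every pair of libraries within a group differed by more than counting noise (chi-square of at least 5.72 per degree of freedom in 90 pairs). Scripts were tested on simulated data.

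The members and lists were chosen with earlier results of these data known. As no member had an adjusted p under 0.05, those with an unadjusted p under 0.05 are given by lowest, median and highest value, fold change and test. All other members, every paralog pair and any called gene among the further pathway genes are named as well, some with their levels. Alternatives left out each library in turn, left out the 4 libraries with lung transcripts, dropped the filter or the scaling factors, changed the ratios' pseudocount to 2, or added the mean cardiomyocyte marker level as a covariate. The covariate without control 19 was added after the data were seen. Of the further pathway genes, 1 is not reported here.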

Additional observations from a re-analysis of the deposited data

Results flagged for a closer look

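Of 90 groups of 10 libraries tested for a value far from the others, 17 held one, where chance gives about 5%. In 10 genes this was control 19, with 92.9 CPM for Hk2, 226.5 for Pfkm, 219 for Tpi1, 434 for Ldhb, 202 for Idh3g, 247 for Dlst, 151 for Suclg1, 54.7 for Suclg2, 212 for Fh1 and 328 for Mdh2, each the lowest of its group by a wide gap. Control 19 was likewise the lowest control in the log2 ratios Slc2a4/Slc2a1 (2.32), Pgam2/Pgam1 (3.16) and Eno3/Eno1 (2.33). Its summed lung marker level was 28090 CPM. Control 10 had the highest Pfkfb1 level of its group (63.1 CPM). Among rapamycin libraries, number 3 was highest for Eno1 (103.7 CPM), number 15 highest for Sucla2 (796.7 CPM) and number 5 lowest for Idh3g (307.7 CPM).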

How the results depend on the processing

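No paired analysis was possible because each library number occurs in 1 group. With library totals only, the median of all genes moved from -0.01 to -0.13, 1332 genes passed, and 2 members did (Pfkp, -0.53, and Pfkfb2, -0.33), as did 4 further pathway genes. On that scale Hk1 (-0.066), Gpi1 (-0.026), Pfkl (-0.034), Gapdh (-0.10) and Eno1 (-0.030) lay below 0. DESeq2 called 1 member and 969 genes. Without the filter on low counts 0 further genes passed and Pgk1 was at 0.0070.

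With the cardiomyocyte markers in the model 58 genes passed, and these fold changes turned below 0: Slc2a4 (-0.055), Hk1 (-0.22), Gpi1 (-0.10), Pfkl (-0.14), Aldoa (-0.044), Tpi1 (-0.030), Gapdh (-0.27), Pgam2 (-0.26), Ldha (-0.018), Ldhb (-0.039), Cs (-0.0057), Idh2 (-0.0083), Idh3a (-0.0082), Ogdh (-0.022), Dlst (-0.016), Mdh2 (-0.028) and Sdhb (-0.057). With control 19 also left out 9 genes and 0 further pathway genes passed, and the values of these genes were -0.12, -0.30, -0.16, -0.25, -0.14, -0.050, -0.34, -0.35, -0.074, -0.073, -0.037, -0.074, -0.041, -0.10, -0.053, -0.074 and -0.084 in the same order, with Suclg2 at -0.0037.

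Without the 4 libraries with lung transcripts 280 genes, 0 further pathway genes and 1 of the 10 ratios passed, and Gapdh was at -0.10. Leaving out 1 library at a time gave 0 to 1 members, 0 to 2 further genes and 2 to 6 ratios that passed, and 165 to 791 genes in all (165 without rapamycin 18, 791 without rapamycin 5). The ratios were adjusted over 10 pairs only, and single genes over all genes tested. The number of ratios was 2 without control 11 or control 13 and 3 without control 17 or control 19. Gapdh ranged from -0.074 to 0.086, Pgk1 from -0.049 to 0.014, Hk1 from -0.031 to 0.12 and the Ldhb/Ldha ratio from -0.0012 to 0.097. The cause of these changes was not tested. Counting error limits low genes such as Pgam1, at 67 to 156 counts per library.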
